A study of Mus musculus with 9 samples.

Results

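The 44 genes named for this account carry cells through the division cycle: cyclins and their kinases, the machinery that licenses and copies DNA, enzymes that supply nucleotides, and proteins of mitosis. They were chosen by name, as genes of the cell cycle and DNA replication, and found on the arrays through the gene symbols of the platform annotation. Of the 44 genes, 41 were measured, by 59 probe sets, out of 8251 genes measured in all. Tyms was matched only by probe sets that carry several gene symbols, and Ccnb1 and Bub1b by none, so these 3 genes are not analysed here. RNA came from F9, a line of mouse embryonal carcinoma cells that resembles early embryo cells and can be turned towards endoderm in culture. The cells were given retinoic acid (RA) at 0.5 µM, trichostatin A (TSA, an inhibitor of histone deacetylases) at 0.07 µM, or ethanol as the vehicle, each for 24 h, with 3 arrays a group. Only ethanol-treated cells were given as controls, and they serve as the reference for both compounds, so the RA and TSA comparisons share the same vehicle arrays. Whether the arrays of a group came from separate cultures is not stated, and a p-value here can then reflect technical spread between arrays alone.

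Division in mammalian cells starts with D-type cyclins, which activate Cdk4 and Cdk6 so that the Rb protein is phosphorylated and releases E2F transcription factors. E2F factors drive genes for DNA replication, among them the Mcm helicase subunits, ribonucleotide reductase and Pcna, and later the cyclin B and Cdk1 genes are switched on for mitosis. Embryonal carcinoma and embryonic stem cells cycle fast with a short G1 phase, and F9 cells slow their growth as they differentiate.

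Each value is the authors' ratio of a probe set's signal to the mean of that probe set on the vehicle arrays, so 1 is the vehicle mean and a level says nothing about brightness or about one gene against another. Changes are differences of log2(ratio + 0.05) between groups of 3 arrays, with SE and a Benjamini-Hochberg adjusted p from 1 limma fit over all 8251 genes. A gene was called changed at an adjusted p under 0.05.

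Stretches around a listed start of 4 genes are shown. E2f1 and Rrm2 were the genes called in TSA for which a stretch was listed. Mcm7 and Cdk1 were chosen after the values were seen, because their printed stretches hold the letters bound by E2F factors. Each runs from 250 bases before to 50 bases after the RefSeq transcription start in GRCm38.p6, written in the direction of the gene. Capitals mark any match of 4 motifs, on either strand. The E2F motif was searched as TTTNNCGC. A CCAAT box was searched by the letters of its name. The cell cycle homology region (CHR) of genes active late in the cycle was searched as TTTGAA. Last came the GC box, with the letters GGGCGG.
E2f1, chr2:154569377-154569676, minus strand: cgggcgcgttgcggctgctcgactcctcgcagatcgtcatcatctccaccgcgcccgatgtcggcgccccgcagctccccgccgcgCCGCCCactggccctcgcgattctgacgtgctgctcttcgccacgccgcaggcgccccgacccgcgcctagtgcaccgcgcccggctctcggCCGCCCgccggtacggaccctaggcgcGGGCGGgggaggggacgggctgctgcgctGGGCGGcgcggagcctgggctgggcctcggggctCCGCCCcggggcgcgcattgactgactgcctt
Rrm2, chr12:24708004-24708303, plus strand: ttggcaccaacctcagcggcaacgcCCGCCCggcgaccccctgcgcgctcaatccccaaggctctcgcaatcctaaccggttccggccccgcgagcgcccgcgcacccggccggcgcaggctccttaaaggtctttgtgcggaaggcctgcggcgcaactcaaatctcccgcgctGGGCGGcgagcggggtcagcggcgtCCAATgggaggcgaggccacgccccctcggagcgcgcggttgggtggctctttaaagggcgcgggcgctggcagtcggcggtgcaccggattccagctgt
Mcm7, chr5:138171834-138172133, minus strand: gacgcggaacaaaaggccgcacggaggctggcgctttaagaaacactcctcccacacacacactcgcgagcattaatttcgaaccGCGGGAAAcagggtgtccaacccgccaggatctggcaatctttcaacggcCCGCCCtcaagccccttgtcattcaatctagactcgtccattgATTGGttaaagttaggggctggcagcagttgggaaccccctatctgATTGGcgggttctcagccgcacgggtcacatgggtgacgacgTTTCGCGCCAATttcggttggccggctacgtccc
Cdk1, chr10:69352863-69353162, minus strand: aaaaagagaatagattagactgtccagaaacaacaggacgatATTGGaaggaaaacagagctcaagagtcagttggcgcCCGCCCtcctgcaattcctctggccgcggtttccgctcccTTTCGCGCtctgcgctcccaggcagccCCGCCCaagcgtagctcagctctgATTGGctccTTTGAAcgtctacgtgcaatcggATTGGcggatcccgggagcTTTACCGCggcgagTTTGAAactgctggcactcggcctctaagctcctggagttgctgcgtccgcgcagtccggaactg

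The E2f1 stretch, around the only start listed for that gene, held 5 GC box matches and none of the other letters. The first part of this stretch reads as protein code without a stop, so it need not be the E2f1 promoter. Sequence around any other start of E2f1 was not searched, so the missing E2F letters hold for this stretch alone. Rrm2 had 2 GC box matches and 1 CCAAT. The printed Mcm7 stretch had 2 matches of the E2F letters, 3 of CCAAT and 1 of the GC box. Its E2F match at base 17 after the start overlaps the CCAAT at base 24. A further Mcm7 start was listed, and its stretch, not printed, held CCAAT and GC box matches but none of the E2F letters. Cdk1 held all 4 kinds, with 2 matches of the E2F letters and 2 of TTTGAA. Promoters were listed for 34 of the 41 genes, 39 stretches in all. The E2F letters occurred in 28.2% of these 39 stretches, against 7.38% of the 8412 promoters of measured genes and 5.17% of all 32851 listed promoters. CCAAT occurred in 59.0% of the 39, against 37.0% and 37.4%. TTTGAA was found in 23.1%, against 12.9% and 17.9%. The GC box letters stood in 76.9%, against 57.0% and 35.7%. The genes with the E2F letters in any listed stretch were Cdc25a, Cdc6, Cdk1, Cdk2, Lig1, Mcm3, Mcm5, Mcm6, Mcm7, Pola1 and Pold1. Their median log2 change in TSA was -0.63, and that of the 23 genes without the letters in any listed stretch was -0.47. E2f1 was counted among the 23 by its printed stretch alone. In RA the median was -0.14 with the letters and -0.27 without them.

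After 24 h of TSA most of the cell cycle genes had levels below vehicle, and in 23 of 41 (56.1%) every TSA array was below every vehicle array, which held for 17.8% of all genes. Of the 41 log2 changes in TSA, 39 were below 0 and their median was -0.56, while over all genes 63.2% were below 0 and the median was -0.15. E2f1, Rrm2 and Mcm4 fell past the adjusted threshold and no member rose. The background was 4.50% of genes called in either direction and 1.78% called lower. An unadjusted p under 0.05 was found for 22 of 41 members and for 1783 of all 8251 genes. RA changed no member by this test, at a background of 1.82%. An unadjusted p under 0.05 in RA was found for 6 of 41 members and for 1149 of all 8251 genes. The median in RA was -0.21, against -0.12 over all genes. In bulk RNA, fewer cells in a phase of the cycle and less of an mRNA per cell cannot be told apart.

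The arrays differed within groups as well. The median log2 level over the 41 genes was -0.11, -0.18 and -0.28 on the RA arrays, -0.39, -0.72 and -0.61 on the TSA arrays, and 0.20, 0.05 and -0.12 on the vehicle arrays. All TSA arrays thus lay below all other arrays. Vehicle 1 was the highest vehicle array in 61.0% of the 41 genes (42.7% of all genes) and vehicle 3 the lowest in 65.9% (44.6%). Array medians over all probe sets were between 0.819 and 1.01, and all RA and TSA arrays were below the vehicle arrays. With arrays centred on their own medians, the members' median change was -0.05 in RA and -0.36 in TSA, against 0.04 and 0.05 over all genes. The count of members with separated arrays was then 3 in RA (6.18% of all genes) and 21 in TSA (9.15%), and none of the 3 TSA calls passed. Signals for 18S RNA were highest on RA 3 (0.961) and vehicle 3 (2.40), and between 0.0336 and 0.0531 on the TSA arrays. Other arrays were low as well, with 0.0723 on RA 1, 0.0515 on RA 2 and 0.073 on vehicle 2, and vehicle 1 had 0.538. Without RA 3 and vehicle 3, TSA separated 28 of 41 members from vehicle (30.6% of all genes). In that fit 7 members passed, among them E2f1, Mcm4 and Rrm2, as did 473 of all 8251 genes.

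**Figure D1:**
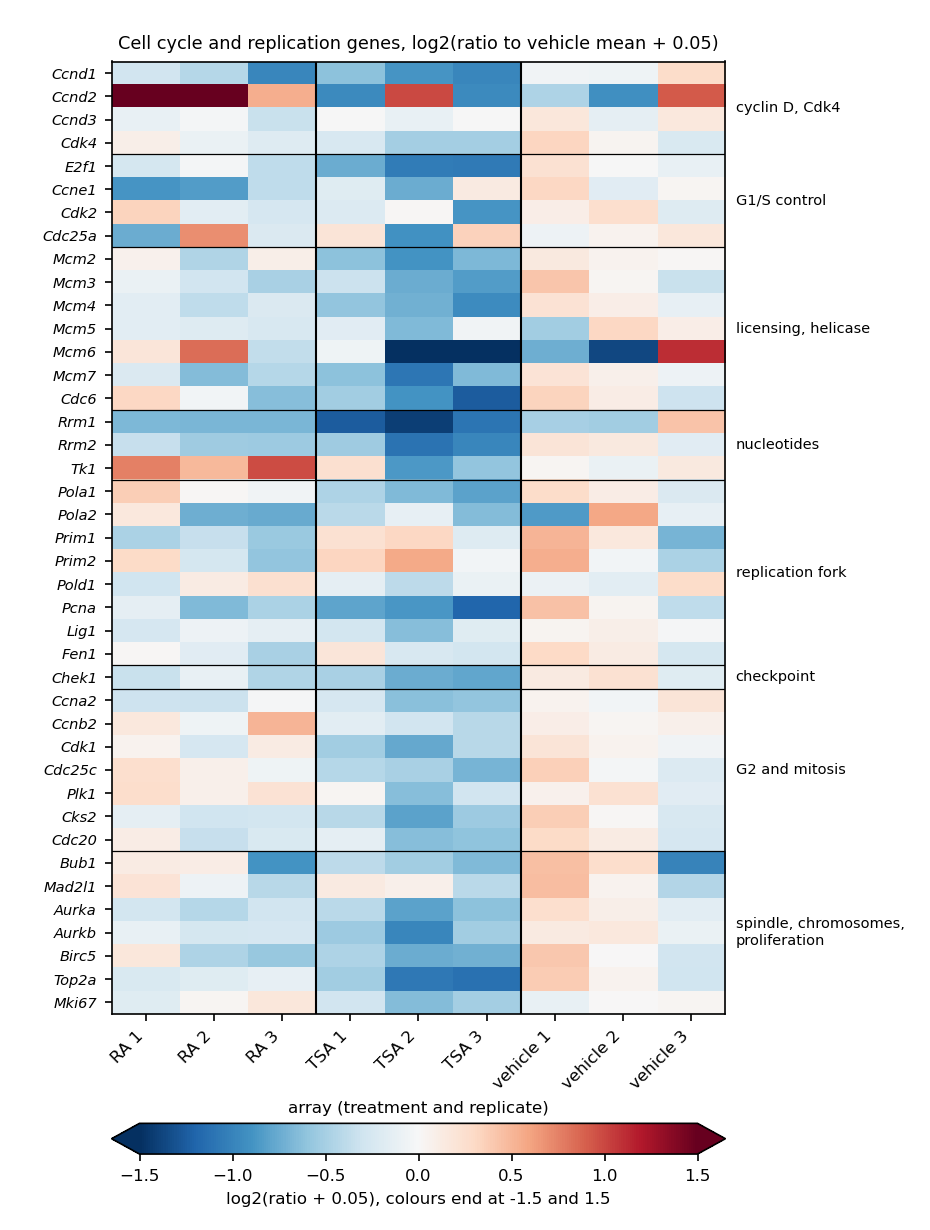
Level of each of the 41 genes on each array, as log2(ratio to the vehicle mean + 0.05), with genes in rows by role and the RA, TSA and vehicle arrays in columns. Blue is below and red above the vehicle mean. Most rows are blue on the 3 TSA arrays, while Tk1 and Ccnd2 are red on the RA arrays.

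Marker genes of cell types also changed on the same arrays, and no cell type is named from them. Over all genes 1.82% were called in RA and 4.50% in TSA. Of 16 fibroblast, muscle and feeder cell markers, none passed in RA and 6 rose in TSA. Their mean log2 level was between -0.08 and 0.16 on the RA arrays, between 0.71 and 1.00 on the TSA arrays, and between -0.37 and 0.26 on the vehicle arrays. The medians were between 0.17 and 0.40 with RA, between 0.32 and 0.67 with TSA, and between -0.26 and 0.34 with vehicle. Of 19 endoderm markers, 5 rose in RA and 2 in TSA, with means between 0.61 and 0.70 on RA arrays, between 0.03 and 0.08 on TSA arrays, and between -0.31 and 0.29 on vehicle arrays. The medians were between 0.27 and 0.54 with RA, between -0.25 and -0.09 with TSA, and between -0.19 and 0.41 with vehicle. Among 8 markers of undifferentiated cells 4 fell in RA and 3 in TSA, with means between -1.39 and -1.26 on RA arrays, between -1.23 and -0.97 on TSA arrays, and between -0.13 and 0.15 on vehicle arrays. The medians were between -1.22 and -1.07 with RA, between -1.13 and -0.58 with TSA, and between -0.17 and 0.21 with vehicle. Ratios do not show whether a marker was at 0, and the part of these markers in the cell cycle results was not tested.

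At the entry to the cycle stand the D-type cyclins. Ccnd1, cyclin D1, had levels of 0.773, 0.692 and 0.456 with RA, 0.603, 0.493 and 0.456 with TSA, and 0.913, 0.906 and 1.16 with vehicle. Every RA and TSA array was below every vehicle array. The log2 change was -0.62 in RA (SE 0.23, adjusted p 0.273) and -0.88 in TSA (SE 0.23, adjusted p 0.0682), so neither passed. Its 2 probe sets had TSA values of -1.15 and -0.60, and the first passed over all probe sets (adjusted p 0.0433).

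Ccnd2, cyclin D2, had the highest log2 value of the 41 genes in RA, opposite in sign to that of Ccnd1. Its levels were 4.60, 5.52 and 1.41 with RA, 0.466, 1.93 and 0.467 with TSA, and 0.676, 0.48 and 1.84 with vehicle. RA 1 and RA 2 stood well above all other arrays, but RA 3 was below TSA 2 and vehicle 3, so the groups overlapped. The change of 1.90 in RA had an SE of 0.72 and an adjusted p of 0.278. Ccnd3, cyclin D3, had -0.22 in RA and -0.11 in TSA, and Cdk4, the kinase these cyclins activate, -0.11 in RA and -0.47 in TSA (adjusted p between 0.22 and 0.862 for both genes).

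At the passage into S phase, E2f1, a transcription factor for replication genes that also acts on its own gene, had the smallest adjusted p of all members. Its levels were 0.781, 0.929 and 0.72 with RA, 0.548, 0.434 and 0.429 with TSA, and 1.13, 0.948 and 0.878 with vehicle. The TSA arrays were below all others, whereas RA 2 lay within the vehicle range. E2f1 fell by 0.99 on the log2 scale in TSA (SE 0.19, adjusted p 0.0246) and its value in RA was -0.27 (SE 0.19, adjusted p 0.595). RA against TSA gave 0.72 (SE 0.19, adjusted p 0.069), with all RA arrays above all TSA arrays. Both E2f1 probe sets were lower in TSA, by -1.03 (adjusted p 0.0818) and -0.95 (adjusted p 0.0346). The one that passed has a suffix that marks shared or less specific probe sets. With probe sets of plain suffix alone, E2f1 was not called. The call did not pass without vehicle 1 (adjusted p 0.0617), vehicle 2 (0.0822), TSA 1 (0.0503), TSA 2 (0.11) or TSA 3 (0.0876).

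Ccne1, cyclin E1, the partner of Cdk2 in late G1, had its larger difference with RA. It measured 0.492, 0.51 and 0.719 with RA, 0.831, 0.549 and 1.05 with TSA, and 1.19, 0.836 and 0.972 with vehicle. RA was below vehicle on every array, but TSA overlapped both groups, and the change of -0.76 in RA did not pass (SE 0.27, adjusted p 0.246). Cdk2 had -0.08 in RA and -0.42 in TSA. Cdc25a, the phosphatase that activates Cdk2, gave -0.14 in RA and -0.17 in TSA, but its probe sets disagreed in TSA. One had -0.85 and passed over all probe sets (adjusted p 0.0394), the other 0.51, with levels between 0.472 and 2.74 on the TSA arrays.

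**Figure D2:**
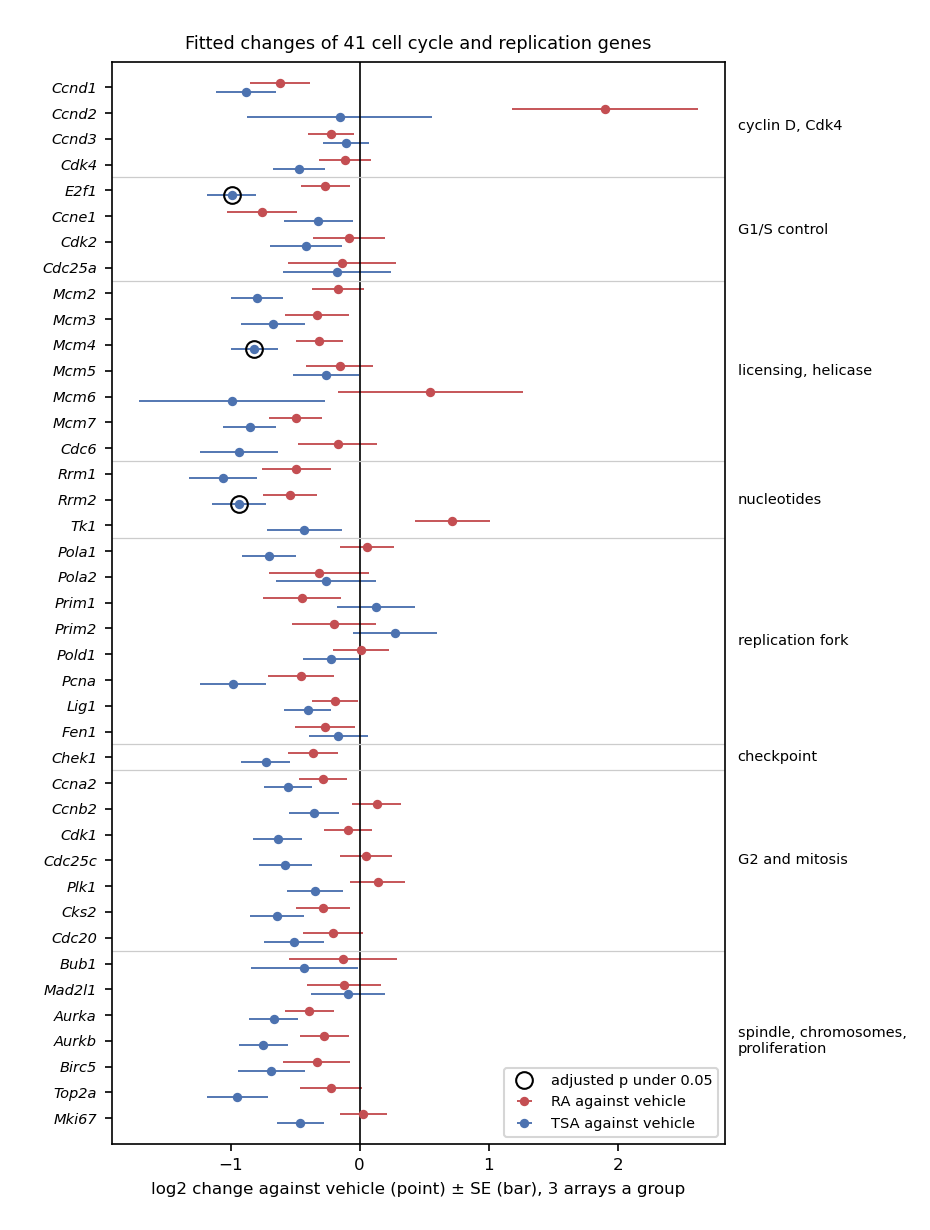
Fitted log2 change of each gene against vehicle, RA in red above TSA in blue, as a point with a bar of 1 SE on each side (3 arrays a group), ordered by role. Circles mark E2f1, Mcm4 and Rrm2 in TSA, the changes with an adjusted p under 0.05. Prim1 and Prim2 are the only members with a TSA point above 0.

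Replication origins are licensed by loading of the Mcm2 to Mcm7 helicase with the help of Cdc6. All 7 of these genes had TSA changes below 0, with a median of -0.81, and the median in RA was -0.17. Mcm4 had levels of 0.85, 0.717 and 0.811 with RA, 0.613, 0.559 and 0.47 with TSA, and 1.11, 1.02 and 0.871 with vehicle. The groups did not overlap, with TSA lowest and RA between TSA and vehicle. Mcm4 fell by 0.81 in TSA (SE 0.18, adjusted p 0.0414), and its value in RA was -0.31 (SE 0.18, adjusted p 0.491). The call held without vehicle 3 (adjusted p 0.035) and failed without each of the other 8 arrays (adjusted p between 0.0618 and 0.142).

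Mcm7 was nearest to the threshold among members that missed it. It measured 0.811, 0.587 and 0.695 with RA, 0.605, 0.42 and 0.582 with TSA, and 1.10, 1.00 and 0.897 with vehicle. Both treated groups were below vehicle on all arrays and overlapped each other. Its changes were -0.50 in RA (SE 0.21, adjusted p 0.322) and -0.85 in TSA (SE 0.21, adjusted p 0.0551).

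Mcm2 had levels of 0.993, 0.684 and 1.02 with RA, 0.603, 0.488 and 0.578 with TSA, and 1.06, 0.983 and 0.96 with vehicle. RA reached the vehicle range on RA 1 and RA 3, and TSA was below all other arrays, with a change of -0.80 (SE 0.20, adjusted p 0.0598). Cdc6, the loader, had 1.19, 0.92 and 0.59 with RA, 0.644, 0.487 and 0.373 with TSA, and 1.21, 1.03 and 0.755 with vehicle. TSA 1 was above RA 3, so those groups overlapped. The change in TSA was -0.93 (SE 0.31, adjusted p 0.123). Mcm3 and Mcm5 gave -0.67 and -0.26 in TSA, as averages of 2 probe sets with overlapping arrays. In each gene 1 of the 2 probe sets separated TSA from vehicle, with -0.75 for Mcm3 and -0.50 for Mcm5. The others gave -0.59 and -0.02. Mcm6 varied most, between 0.337 and 2.11 on the vehicle arrays, and its TSA value of -0.99 had an SE of 0.72.

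Enzymes that make deoxynucleotides differed between each other. Rrm2, the regulatory subunit of ribonucleotide reductase that is made in S phase, had 0.736, 0.641 and 0.633 with RA, 0.64, 0.413 and 0.457 with TSA, and 1.10, 1.06 and 0.842 with vehicle. Both treated groups lay below vehicle on all arrays, and TSA 1 lay between the 2 lower RA arrays. Rrm2 fell by 0.94 in TSA (SE 0.21, adjusted p 0.041), and its value in RA was -0.54 (SE 0.21, adjusted p 0.291). Among the fits that left out 1 array, the call held without vehicle 3 (adjusted p 0.0353) and without TSA 1 (0.0471) and failed in the other 7 (between 0.0603 and 0.171).

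Rrm1, the large subunit of the same enzyme, had 0.575, 0.57 and 0.57 with RA, 0.372, 0.325 and 0.418 with TSA, and 0.659, 0.647 and 1.30 with vehicle. The averaged groups were separate, but the 2 probe sets were not alike: neither separated RA from vehicle, and 1 separated TSA from vehicle. In the other, vehicle 3 stood at 2.24, against 0.317 and 0.442 on vehicle 1 and vehicle 2. Its TSA change of -1.06 was the lowest of the 41 genes (SE 0.27, adjusted p 0.0599). Tk1, thymidine kinase of the salvage pathway, had 1.65, 1.35 and 1.92 with RA, 1.13, 0.502 and 0.615 with TSA, and 0.969, 0.886 and 1.06 with vehicle. It was the only member with all RA arrays above all vehicle arrays, which held for 6.52% of all genes. The changes were 0.72 in RA (SE 0.29, adjusted p 0.31) and 1.14 in RA against TSA (SE 0.29, adjusted p 0.059). Its 2 probe sets did not agree, with RA changes of -0.21 and 1.64 and TSA changes of -1.08 and 0.23, so the average stands for neither.

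The 8 replication fork genes had medians of -0.23 in RA and -0.24 in TSA, on the log2 scale. With the probe sets of plain suffix alone, without those marked as shared or less specific, the medians were -0.23 in RA and -0.52 in TSA. Pcna, the sliding clamp, measured 0.859, 0.584 and 0.671 with RA, 0.53, 0.495 and 0.39 with TSA, and 1.30, 0.979 and 0.718 with vehicle. TSA was below all other arrays and RA overlapped vehicle, and the change of -0.98 in TSA did not pass (SE 0.25, adjusted p 0.0647). Pola1, the catalytic subunit of the polymerase that starts each strand, had 1.25, 0.961 and 0.911 with RA, 0.673, 0.58 and 0.524 with TSA, and 1.16, 1.03 and 0.813 with vehicle. RA overlapped vehicle, with a value of 0.05, and TSA gave -0.70 (SE 0.21, adjusted p 0.0954). RA against TSA was 0.76 for Pola1 (SE 0.21, adjusted p 0.0807), with no overlap.

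Prim1 and Prim2, the primase subunits that work in one complex with Pola1, had other values. Prim1 had 0.669, 0.734 and 0.633 with RA, 1.12, 1.19 and 0.825 with TSA, and 1.37, 1.07 and 0.564 with vehicle. It was the only member with all RA arrays below all TSA arrays (log2 -0.57, SE 0.31, adjusted p 0.359), which held for 14.5% of all genes. Prim1 and Prim2 had TSA changes of 0.13 and 0.27 (adjusted p 0.85 and 0.678). Pola2 gave -0.26 and Pold1, of the main lagging strand polymerase, -0.22 in TSA, each as the average of 2 probe sets with opposite signs. The plain probe set gave -0.78 for Pola2 (the other 0.26) and -0.49 for Pold1 (the other 0.04), and averaged arrays overlapped vehicle. Lig1, which joins Okazaki fragments, had all RA and all TSA arrays below vehicle on average, with values of -0.19 in RA and -0.40 in TSA that did not pass. Neither Lig1 probe set alone separated RA from vehicle, and 1 of 2 separated TSA. Fen1, the flap nuclease, had -0.27 in RA and -0.16 in TSA.

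Chek1, the kinase that guards stalled forks, had 0.741, 0.876 and 0.681 with RA, 0.662, 0.549 and 0.533 with TSA, and 1.05, 1.12 and 0.833 with vehicle. TSA was the lowest group on all arrays and RA 2 was within the vehicle range. The changes were -0.36 in RA (SE 0.19, adjusted p 0.454) and -0.73 in TSA (SE 0.19, adjusted p 0.0682).

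**Figure D3:**
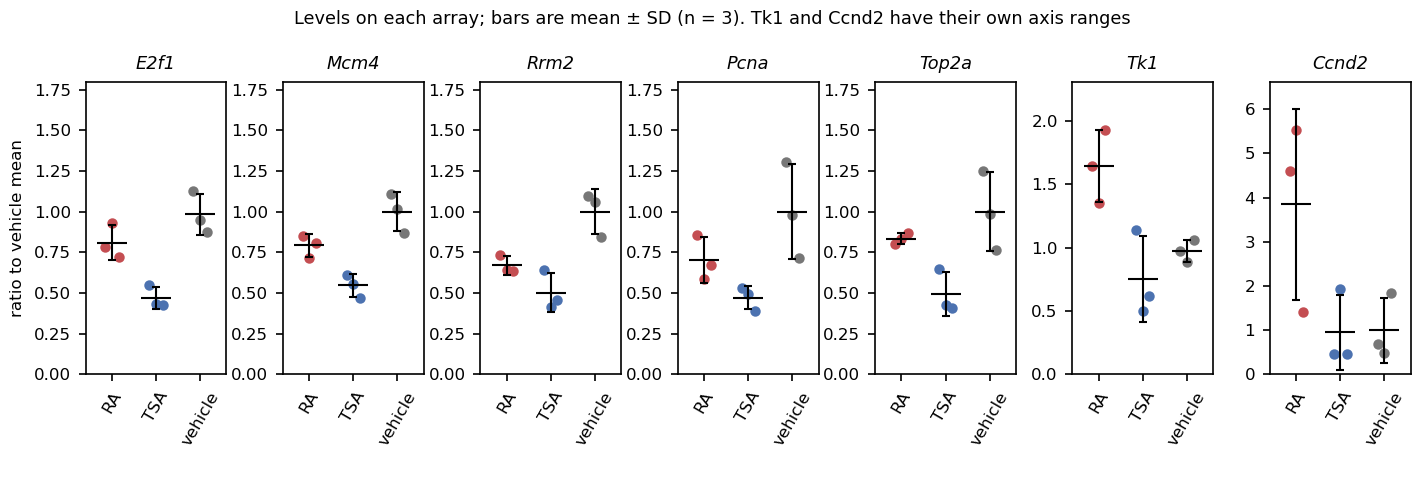
Ratio to the vehicle mean on each array (points) for 7 genes, in RA, TSA and vehicle from left to right, with the mean and SD of 3 arrays as black bars. The TSA arrays of E2f1, Mcm4 and Pcna lie under all other arrays, Tk1 is highest with RA, and Ccnd2 with RA spans 1.41 to 5.52.

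Genes of G2 and mitosis had values near vehicle in RA and below it in TSA. The 7 genes of mitotic entry and exit had medians of -0.09 in RA and -0.56 in TSA, all 7 TSA values were below 0, and in 5 of them every RA array was above every TSA array, which held for 14.6% of all genes. Cdk1, the mitotic kinase, had 0.991, 0.79 and 1.04 with RA, 0.647, 0.537 and 0.701 with TSA, and 1.09, 0.99 and 0.915 with vehicle. RA overlapped vehicle and TSA was below both, with changes of -0.09 in RA and -0.63 in TSA (SE 0.19 each, adjusted p 0.889 and 0.0941). Ccna2, cyclin A2, measured 0.76, 0.75 and 0.939 with RA, 0.788, 0.6 and 0.616 with TSA, and 0.983, 0.924 and 1.09 with vehicle. Its TSA arrays were below vehicle but overlapped RA, and the change was -0.56 (SE 0.19, adjusted p 0.132). Cks2, a small Cdk-binding subunit, had 0.864, 0.764 and 0.776 with RA, 0.697, 0.523 and 0.635 with TSA, and 1.24, 0.965 and 0.798 with vehicle. TSA was the lowest group, with a change of -0.64 (SE 0.21, adjusted p 0.12).

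Cyclin B2 (Ccnb2), the phosphatase Cdc25c and the kinase Plk1 had RA changes of 0.13, 0.05 and 0.14 and TSA changes of -0.36, -0.58 and -0.34. In each of these 3 genes all RA arrays were above all TSA arrays, although no RA against TSA value passed (adjusted p 0.215, 0.135 and 0.267). The Plk1 probe sets disagreed in TSA, between -0.64 and 0.24. Cdc20, which activates the anaphase-promoting complex, gave -0.21 in RA and -0.51 in TSA with overlapping arrays.

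The spindle, chromosome and proliferation group had medians of -0.22 in RA and -0.67 in TSA. Top2a, the topoisomerase that untangles sister chromatids, had 0.801, 0.835 and 0.87 with RA, 0.648, 0.426 and 0.411 with TSA, and 1.25, 0.987 and 0.763 with vehicle. RA lay inside the vehicle range and TSA below both, with changes of -0.22 in RA (SE 0.24, adjusted p 0.753) and -0.95 in TSA (SE 0.24, adjusted p 0.0599). Aurka and Aurkb are mitotic kinases of the spindle poles and of the centromere. Aurka had 0.778, 0.691 and 0.772 with RA, 0.705, 0.525 and 0.603 with TSA, and 1.15, 1.01 and 0.845 with vehicle. Aurkb had 0.879, 0.78 and 0.791 with RA, 0.634, 0.459 and 0.649 with TSA, and 1.05, 1.07 and 0.884 with vehicle. Both kinases were below vehicle on all RA and TSA arrays. Their changes were -0.39 and -0.27 in RA and -0.67 and -0.75 in TSA (SE 0.19 each), with adjusted p in TSA of 0.082 for Aurka and 0.062 for Aurkb.

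Birc5, survivin, which works with Aurkb, and Mki67, the Ki-67 protein used to score dividing cells, had TSA arrays below vehicle, with log2 values of -0.68 and -0.46 (adjusted p 0.174 and 0.187). For Mki67 this held only for the average, since each of its 2 probe sets overlapped vehicle. In RA Mki67 was near vehicle, at 0.03. The remaining genes serve the spindle checkpoint. Mad2l1 gave -0.12 in RA and -0.09 in TSA, and Bub1 gave -0.13 in RA and -0.43 in TSA as the average of 3 probe sets whose TSA values were between -1.07 and 0.66. Over all members with several probe sets, 16 in number, probe sets had opposite signs in 7 (RA against vehicle), 6 (TSA against vehicle) and 4 (RA against TSA). In 7 of the 16 the averaged TSA arrays were all below vehicle, and in 2 of these (Ccnd1 and E2f1) every probe set was. With plain probe sets alone, TSA separated 24 of 40 members from vehicle (17.4% of all genes).

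Set directly against each other, RA gave higher values than TSA in 34 of 41 genes, with a median log2 difference of 0.36 against 0.03 over all genes. No member passed, at a background of 4.99% of genes called. An unadjusted p under 0.05 was found for 13 of 41 members and for 1602 of all 8251 genes. Every RA array was above every TSA array in 17 of 41 genes (41.5%), against 14.6% of all genes. Against vehicle, 9 of 41 members had all RA arrays lower, at a background of 11.4%, and Tk1 alone had them higher, at a background of 6.52%. Centred on the array medians, the RA against TSA median was 0.31 and 15 members stayed separate (13.0% of all genes), so the difference between the 2 treatments moved little with that scaling. The number in RA against vehicle did move, to 3 with centring and to 19 without vehicle 3 (24.9% of all genes).

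**Figure D4:**
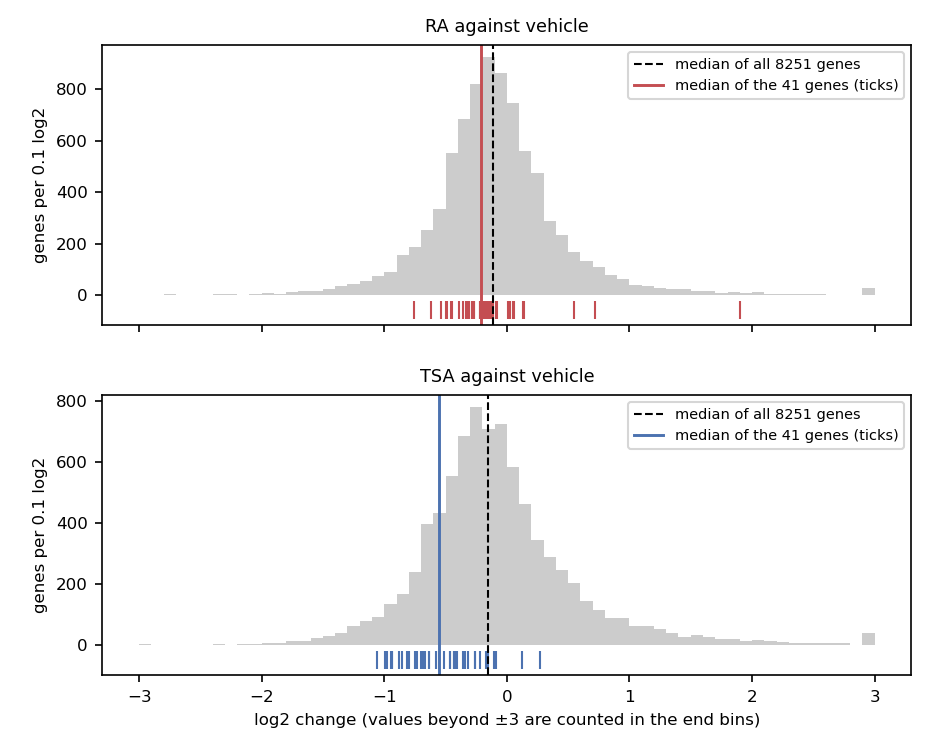
Distribution of log2 changes over all 8251 genes (grey, number of genes per 0.1 log2) in RA and in TSA against vehicle, with each of the 41 genes as a coloured tick below. The coloured line, the members' median, is at -0.21 in RA and -0.56 in TSA. The dashed line, the median of all genes, is at -0.12 and -0.15.

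Of 137 further genes of the cycle, listed by role, 105 were measured. None passed in RA (1.82% of all genes were called). An unadjusted p under 0.05 in RA was found for 11 of the 105 and for 1149 of all 8251 genes. In TSA 3 rose and 5 fell (4.50% of all genes were called), and RA against TSA called 3 higher and 3 lower (4.99% of all genes). Their median was -0.17 in RA and -0.38 in TSA, and 40 of 105 (38.1%) had all TSA arrays below all vehicle arrays, against 17.8% of all genes. Leaving out the 7 inhibitors of cyclin-dependent kinases, 83 of 98 (84.7%) were below 0 in TSA, against 63.2% of all genes.

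Those that fell in TSA belong to several steps. Mcm10, which helps to start the loaded helicase, had 0.521, 0.501 and 0.528 with RA, 0.516, 0.387 and 0.42 with TSA, and 1.27, 0.983 and 0.749 with vehicle (TSA log2 -1.08, SE 0.22, adjusted p 0.0293). Both treatments were below vehicle on all arrays for Mcm10. Mybl2, a factor that acts with the complex bound to CHR letters, fell by 0.95 in TSA (adjusted p 0.0425) with an RA value of -0.97 that did not pass (adjusted p 0.0655). Of the 2 Mybl2 probe sets, 1 passed in both RA (-1.33, adjusted p 0.0147) and TSA (-1.42, adjusted p 0.00789). Ccng2, an unusual cyclin tied to growth arrest, fell by 1.23 in TSA (adjusted p 0.0434). The centromeric histone Cenpa fell by 1.05 (adjusted p 0.0293) and the spindle protein Nusap1 by 0.87 (adjusted p 0.0233). For Nusap1 only the average passed. Its 2 probe sets, neither of plain suffix, gave -0.89 and -0.85 in TSA (adjusted p 0.147 and 0.189). Neither passed in RA against TSA (adjusted p 0.207 and 0.178). Their vehicle arrays ran in opposite orders, at 0.746, 0.818 and 1.44 in the first and 1.24, 1.17 and 0.583 in the second. Nusap1, Ccng2 and Foxm1, a transcription factor of mitotic genes, were higher in RA than in TSA by 0.86, 1.26 and 1.05 (adjusted p 0.0206, 0.037 and 0.0176). Foxm1 had 1.13, 1.29 and 1.25 with RA, 0.551, 0.454 and 0.707 with TSA, and 0.971, 0.983 and 1.04 with vehicle. On average its TSA arrays were thus below and its RA arrays above all vehicle arrays. Its 2 probe sets gave -1.31 and -0.25 in TSA (adjusted p 0.0143 and 0.561). In the first the RA arrays overlapped vehicle, and in the second the TSA arrays did. RA against TSA passed in the first alone (adjusted p 0.00783 and 0.151).

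The risers in TSA were 3 of the 7 measured inhibitors of cyclin-dependent kinases. Cdkn1c rose by 4.45, Cdkn2b by 3.08 and Cdkn1a by 1.64 on the log2 scale (adjusted p 0.00269, 0.0063 and 0.041). The others did not pass, with TSA values of 0.76 for Cdkn2a, 0.01 for Cdkn2d, -0.06 for Cdkn2c and -0.72 for Cdkn1b. In RA Cdkn1c had 1.28, 0.644 and 0.523, against 17.3, 30.5 and 16.9 with TSA and 1.37, 1.20 and 0.435 with vehicle.

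**Figure D5:**
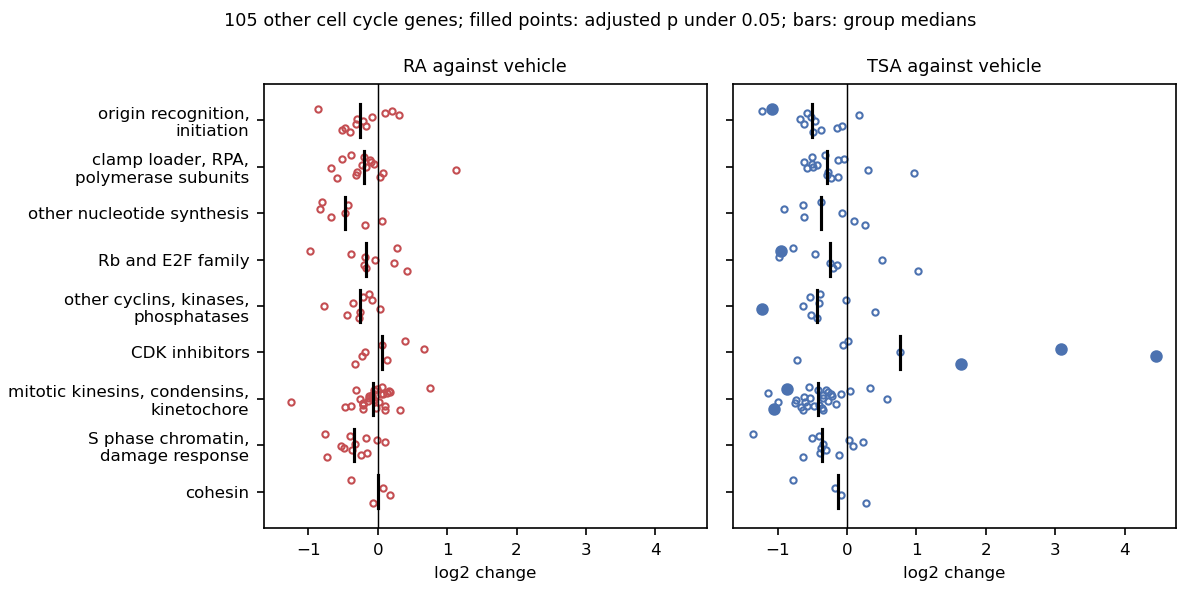
Log2 change of 105 further cell cycle genes against vehicle in RA (left) and TSA (right), 1 point a gene, in rows by role. Filled points have an adjusted p under 0.05 and black bars are row medians. The 3 filled points to the right in TSA are Cdkn1a, Cdkn2b and Cdkn1c, and no point is filled in RA.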

How the data were processed

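F9 RNA of 3 RA, 3 TSA and 3 vehicle samples was measured on oligonucleotide arrays, 1 array a sample. Per the labels, RNA was treated with DNase, cleaned on columns and hybridised at a core facility, and GeneSpring is named for the vehicle samples only. The deposited table holds linear ratios: the mean of the vehicle columns was 1, within 1e-05, in each of 12488 probe sets. How scanner signals became ratios is not given in the sources used. The number of arrays limits the precision. After leaving out 66 control probe sets, 12422 remained, of which 10833 had 1 gene symbol, 396 several and 1193 none. For genes with more than 1 probe set, log2(ratio + 0.05) was averaged over them (a level in the text is that average turned back into a ratio) and the result was fitted with limma 3.58.1 (R 4.3.3) over all 9 arrays. The fit left 6 residual degrees of freedom, and p-values were adjusted by Benjamini-Hochberg. Genes were found through the platform annotation, which can be old, and RefSeq tables of GRCm38.p6. Probe sets of members were also fitted singly, adjusted over 12422. The fit was tested on simulated data.

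The members and lists were chosen with earlier results of these data known. Full values are given for the 3 called members and the 15 next by adjusted p. Some others, such as Ccnd2, Ccne1 and Prim1, were added after their values were seen. Of other cell cycle genes those past the threshold are named. Same-numbered arrays of different groups correlated at -0.02 to 0.32, and nothing in the labels pairs them, so no block was used. Alternatives were the pseudocount, scaling, a filter on low ratios, the treatment of probe sets, the fit, array weights and leaving out arrays.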

Additional observations from a re-analysis of the deposited data

How the results depend on the processing

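The ratios carry no brightness, so members that rest on dim probe sets cannot be told from bright ones, and 3 arrays a group with a shared vehicle leave each call resting on few values. Members called in TSA (3) were none with median centring, quantile normalisation and the fit of the 6 arrays compared. These settings called 399, 101 and 169 of all 8251 genes. Member calls in TSA were 2 with plain probe sets alone (Mcm4 and Rrm2, without E2f1), where 386 of 7660 genes were called. They were 1 with a variance trend (295 of 8251 genes), 8 with the replicate number as a block (462) and 27 with array weights (2659). They were 7 without both arrays of highest 18S signal (473 of 8251 genes), and between 0 and 7 when 1 array was left out (95 to 521 genes). The 30% filter on the mean ratio says nothing about these calls: with the vehicle mean fixed at 1 it removes genes that fell, and it left 22 members, none of them called (0), and 6 genes called lower in TSA. Members called in RA (0) were 3 with array weights (Ccnd2 higher, Mcm7 and Rrm2 lower), where 1313 of 8251 genes were called. They were 0 whichever array was left out (54 to 222 genes). Members called in RA against TSA (0) were 2 with the replicate block (Cdc6 and Pola1, 439 of 8251 genes called) and 2 with array weights (739). With 1 array left out they were between 0 and 1 (155 to 545 genes), where Tk1 passed without TSA 1. The log2 changes of E2f1, Rrm2 and Mcm4 in TSA stayed below 0 throughout. E2f1 passed in 11, Rrm2 in 9 and Mcm4 in 8 of the 20 alternatives that tested them, with adjusted p at most 0.146, 0.171 and 0.194. No call changed direction, and uncalled changes took the other sign in some alternative for 17 members in RA, 11 in TSA and 6 in RA against TSA. The members' TSA median minus that of all genes (-0.40) was between -0.52 and -0.32 over the 20 alternatives without that filter.

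Over all genes, RA against vehicle (150) gave 76 with quantile normalisation, 63 with 6 arrays, 1313 with array weights and 54 to 222 with 1 array left out. TSA against vehicle (371) gave 101, 169 and 2659 with the same 3 settings, 228 with the filter and 95 to 521 with 1 array left out. RA against TSA (412) gave 158 with quantile normalisation, 739 with array weights and 155 to 545 with 1 array left out. The split of calls into higher and lower was 98 and 52 in RA, 138 and 35 after centring and 64 and 12 after quantile normalisation, and in TSA 224 and 147, 334 and 65, and 80 and 21. With array weights lower calls were the majority, 477 and 836 in RA and 1002 and 1657 in TSA, and without vehicle 3 the split was 111 and 111 in RA and 258 and 263 in TSA. Counts of members with separated arrays were added after seeing the data. RA below vehicle (9) was 3 with centring (7.32%, and 6.18% of all genes) and 2 with quantile normalisation (4.88%, and 5.21% of all genes). It was 20 without both arrays of highest 18S signal (48.8%, and 33.1% of all genes). With 1 array left out it was 9 to 19 (11.4% to 24.9% of all genes). RA above TSA (17) was 17 to 26 with 1 array left out (14.6% to 20.5% of all genes). TSA below vehicle (23) was 18 to 28 over all of these settings (7.76% to 30.6% of all genes). In TSA the block added calls for Cdc6, Mcm2, Mcm7, Pcna and Pola1, and beside these and the 2 in RA against TSA it changed no call among members. The filter tests fewer genes, and the fits that leave out arrays use fewer samples, by construction. For centring, quantile normalisation, the block and array weights the cause was not tested.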
